A study of Homo sapiens with 32 samples.

Results

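Loops anchored at gene 3' ends are chromatin loops in which at least 1 of the 5 kb anchors holds the 3' end of a protein-coding gene and neither anchor holds the 5' end of one. They were taken by this rule, from gene records of the hg38 annotation alone, out of 4 deposited loop lists made by in situ Hi-C, an assay that joins and sequences pieces of DNA lying close together in the nucleus. The rule found 3686 of 45629 loops: 1200 of 15180 in untreated wild-type HEK293 cells, 478 of 5906 in wild-type cells given 200 mM sorbitol for 1 h, 1575 of 18966 in untreated eGFP-YAP HEK293 cells, and 433 of 5577 in eGFP-YAP cells given the same sorbitol treatment. Sorbitol draws water out of cells and so imposes hyperosmotic stress.

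HEK293 is an established human embryonic kidney line, and the eGFP-YAP line makes a fusion of eGFP, a green fluorescent protein, with YAP, a co-activator of transcription in the Hippo pathway. The series text states serum starvation for 1 h before sorbitol for the eGFP-YAP cells, and does not state it for the wild-type cells. How the fusion is expressed, and whether the line is a single clone, is not given in the sources used here. Per condition, the labels name 3 wild-type samples or 4 eGFP-YAP samples, 14 of the series' 32, but a condition has 1 loop list with no replicate in it. No test between conditions could therefore be made. Intervals given in brackets are 95% intervals and cover counting error only, so those that lie apart say nothing of the spread between cultures. The 2 lines also differ in an unexplained source name, so line and source cannot be told apart. Read depth is not given in the files, and the number of loops per list is no direct measure of it.

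A gene's 3' end is where the messenger RNA is cleaved and polyadenylated and where RNA polymerase then comes off the DNA. Loops form when the ring-shaped cohesin complex reels in chromatin until it meets a barrier, most often the DNA-binding protein CTCF bound with its motif pointing into the loop. Transcribing polymerase can push cohesin along genes, and cohesin has been found at the 3' ends of active genes, above all where 2 genes end towards each other. Hyperosmotic stress is known to let polymerase read past gene 3' ends. Transcription itself was not measured in these lists.

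The sequences below show the CTCF core motif, in capitals, at anchors of named 3'-end loops, because its presence and strand differed between groups of loops described further on. They were read 5' to 3' along the motif's own strand, from the hg38 genome, and the coordinates are those of the whole printed window. The first 4 are from loops called in the control lists of both lines and in neither sorbitol list, the next 3 from loops called in all 4 lists, and the last 2 from loops called in the sorbitol lists of both lines and in neither control list.
SNX10 and SKAP2 loop, right anchor (chr7:26667746-26667775, minus strand): gtcctaggCCAGTAGATGGCAGcagctttt
EEIG2 loop, right anchor (chr1:108643690-108643773, minus strand): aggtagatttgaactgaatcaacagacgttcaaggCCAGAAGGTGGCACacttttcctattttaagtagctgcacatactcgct
GAPT loop, left anchor (chr5:58496630-58496659, plus strand): attctctaCCAATAGGGGGCACtaaggaag
TVP23C loop, right anchor (chr17:15502975-15503004, minus strand): ggcaactgCCAACAGATGGCGCccgcccgc
RSPO4 loop, left anchor (chr20:816165-816248, plus strand): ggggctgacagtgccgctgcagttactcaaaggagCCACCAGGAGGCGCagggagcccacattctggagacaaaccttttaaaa
SH3TC1 loop, left anchor (chr4:8242317-8242400, plus strand): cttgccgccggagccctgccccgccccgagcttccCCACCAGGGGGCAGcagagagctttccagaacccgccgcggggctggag
SH3TC1 loop, right anchor (chr4:8407061-8407144, minus strand): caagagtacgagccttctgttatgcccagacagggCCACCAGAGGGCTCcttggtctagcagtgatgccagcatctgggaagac
LYPD3 loop, right anchor (chr19:43662656-43662739, minus strand): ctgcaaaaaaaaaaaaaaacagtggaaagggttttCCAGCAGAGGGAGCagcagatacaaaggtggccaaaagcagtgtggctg
CALY loop, left anchor (chr10:133129378-133129407, minus strand): ggctggggCCACCAAAGGGCAGggactgtg

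The SKAP2 and GAPT motifs lay in annotated UTR sequence of those genes, the EEIG2 motif in an intron, and the TVP23C motif in an exon. The RSPO4 motif and the left SH3TC1 motif lay outside protein-coding genes, the right SH3TC1 motif in an intron of ACOX3, the LYPD3 loop's motif in an intron of PLAUR, and the CALY loop's motif in an exon of ADGRA1. Of the 9 motifs printed, 8 pointed into their loop and the CALY one pointed out. Among the motifs of named loops not printed, those at the ATP9B and SPATS2L anchors of control-only loops, and another at the right SH3TC1 anchor, pointed out as well. The search took the CTCF core consensus on both strands and allowed 1 mismatch. A match is a description of the sequence, not a measured binding site. It occurred in 8.69% of the 581574 bins of 5 kb in hg38, and in 15.5% of the 15418 bins that hold a 3' end and no 5' end.

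The share of loops anchored at gene 3' ends was near 8% in every list. It was 7.91% (7.49 to 8.35) in wild-type control, 8.09% (7.42 to 8.82) in wild-type sorbitol, 8.30% (7.92 to 8.71) in eGFP-YAP control and 7.76% (7.09 to 8.50) in eGFP-YAP sorbitol cells. The intervals of control and sorbitol overlapped in both lines. As a background, both anchors of every loop were moved by 100 kb and classified again. Moved to the right, the share was 6.10% and 6.44% in the control lists, and 8.50% and 9.27% in the sorbitol lists, wild type first. Control loops thus held 3' ends alone 1.30 and 1.29 times as often as the moved anchors, and sorbitol loops 0.952 and 0.838 times as often. Moved to the left, the ratios were 1.37 and 1.20 for the controls and 0.877 and 0.806 with sorbitol.

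**Figure D1:**
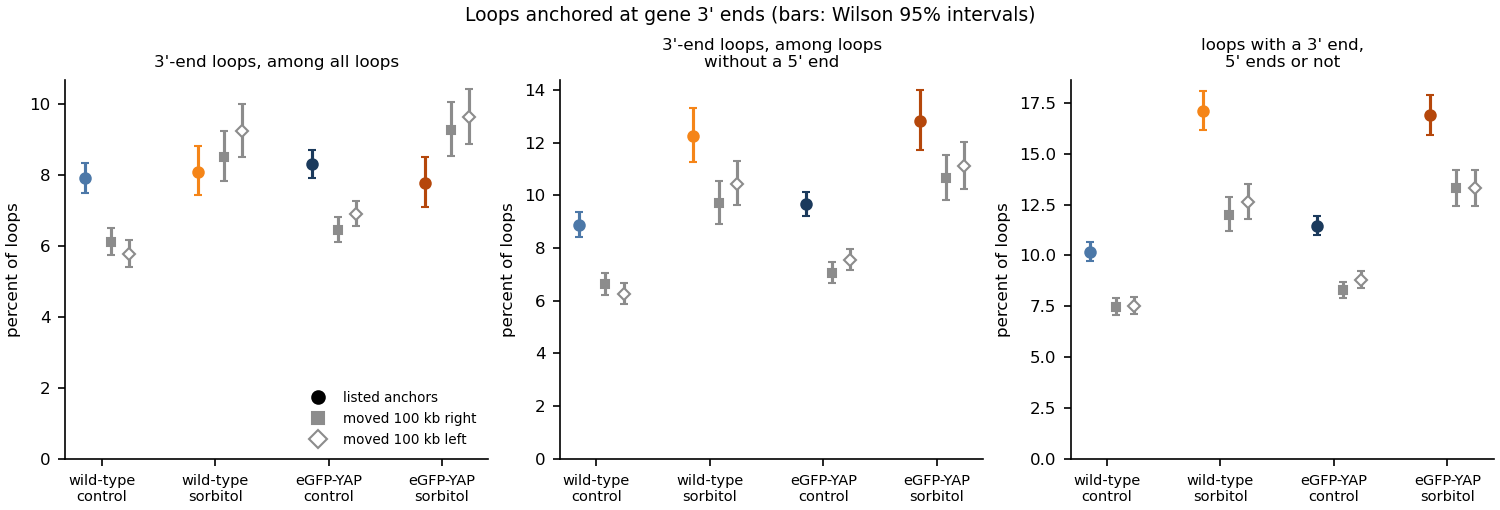
Share of loops (percent, from 0) in the 4 lists: loops anchored at gene 3' ends among all loops, the same among loops without a 5' end, and all loops with a 3' end. Coloured circles are the listed anchors, grey symbols the same anchors moved by 100 kb, and bars Wilson 95% intervals; on the left the circles lie above the grey symbols in the controls (7.91% against 6.10% in wild type) and at or below them with sorbitol (7.76% against 9.27% in eGFP-YAP).

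The position of the sorbitol loops against their background turned on the 5' ends. Loops with a gene 5' end, which the rule leaves out, made up 10.9% and 14.2% of the control lists and 33.9% and 39.4% of the sorbitol lists. With those loops kept, 10.2% of wild-type control loops, 17.1% of wild-type sorbitol loops, 11.5% of eGFP-YAP control loops and 16.9% of eGFP-YAP sorbitol loops held a 3' end. These shares were 1.36, 1.42, 1.38 and 1.27 times those of the anchors moved to the right. Of the loops with a 3' end, 22.3% and 27.6% also held a 5' end in the controls, against 52.7% and 54.0% with sorbitol, while the moved anchors gave 18.3% and 22.2% for the controls and 29.2% and 30.2% with sorbitol. Among the loops without a 5' end, the 3'-end share was 8.87% and 9.68% in the controls and 12.2% and 12.8% with sorbitol, or 1.34 and 1.37 times that of the anchors moved to the right for the controls, and 1.26 and 1.20 times with sorbitol. Anchors in both sorbitol lists lay in gene-richer sequence: the moved anchors also held 5' ends more often there, 12.4% and 12.9% against 7.84% and 8.74% of control loops.

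A stricter form of the rule, added after the data were seen, also left out loops with a 5' end within 5 kb of an anchor. It kept 768 wild-type control loops (5.06%), 241 wild-type sorbitol loops (4.08%), 991 eGFP-YAP control loops (5.23%) and 208 eGFP-YAP sorbitol loops (3.73%). The share was then lower with sorbitol in both lines, with intervals that did not overlap (4.72 to 5.42 against 3.61 to 4.62 in wild type, 4.92 to 5.55 against 3.26 to 4.26 in eGFP-YAP). Among the loops that have no 5' end within 5 kb, however, the share was 6.87% and 7.65% in the controls and 8.78% and 9.19% with sorbitol. The anchors moved to the right gave 5.23% and 5.63% for the controls and 7.65% and 7.97% with sorbitol on that denominator, so the background was higher with sorbitol as well. The direction from control to sorbitol thus turned with the denominator. With anchors widened by 5 kb on each side, the share of all loops was 14.4% and 13.9% in the controls and 10.6% and 10.3% with sorbitol.

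Gene ends were also counted in every 5 kb bin from 100 kb outside to 100 kb inside each anchor, over all loops of a list. Gene 3' ends formed no peak at the anchor bin in the control lists. In wild-type control cells, 6.06% of bins 20 kb outside the anchor held a 3' end, 5.41% of the anchor bins and 3.67% of bins 20 kb inside. In eGFP-YAP control cells the values were 6.05%, 6.10% and 4.63%, with 6.45% in the bin 5 kb outside. The anchors thus stood at the edge of a step, with more gene 3' ends outside the loop than inside it. Gene 5' ends in wild-type control gave 5.17%, 5.74% and 3.46% in the same bins, so there the step was not particular to 3' ends.

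In the sorbitol lists the same bins gave 8.09%, 9.47% and 7.46% in wild type and 9.14%, 9.33% and 8.66% in eGFP-YAP cells. Gene 5' ends formed a peak at the sorbitol anchors: they stood in 21.3% and 26.4% of anchor bins, against 7.20% and 7.86% of bins 20 kb outside. Bins with a 3' end and no 5' end were rarer at the sorbitol anchor, at 5.89% and 5.37%, than 5 kb outside, at 6.93% and 7.22%, or 5 kb inside, at 6.88% and 7.06%. For control anchors no such dip was seen in either line, with 4.56% and 4.87% at the anchor, between the 5.00% and 5.33% outside and the 4.40% and 4.57% inside. This count leaves out every bin with a 5' end, and those were most frequent at the sorbitol anchors. Among wild-type sorbitol bins without a 5' end, 7.49% held a 3' end at the anchor, against 7.94% outside and 7.78% inside. In wild-type sorbitol the dip was therefore small once bins with a 5' end were taken out of the denominator too. The eGFP-YAP sorbitol values on that denominator are not given here. Neighbouring bins share genes and anchors, so these values are descriptions.

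**Figure D2:**
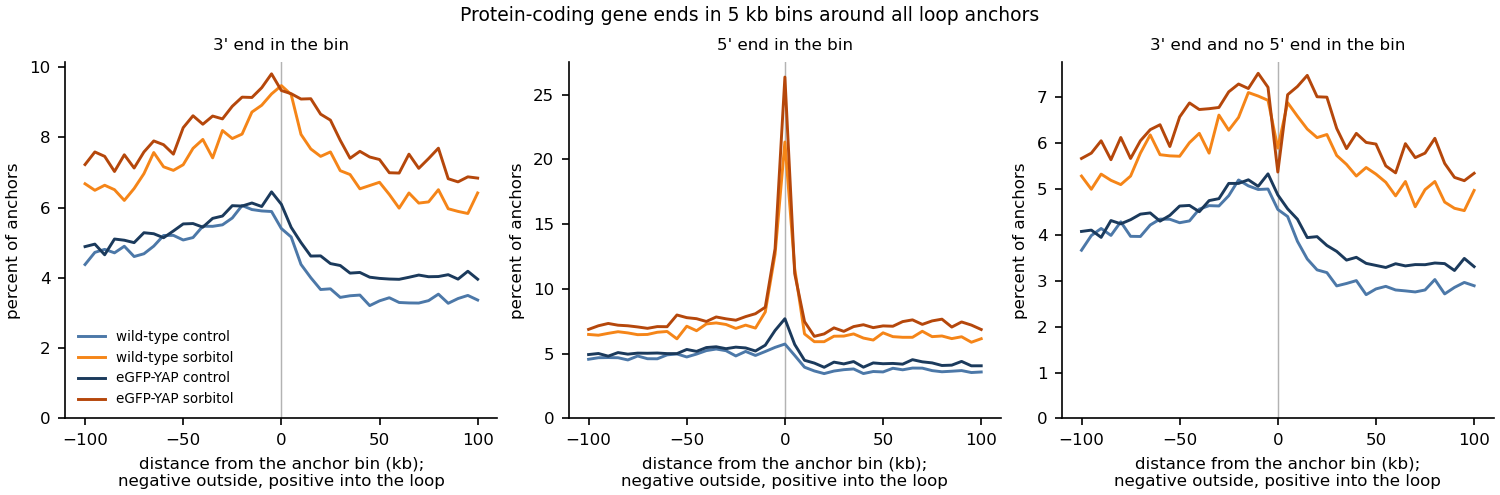
Percent of anchors (from 0) whose 5 kb bin holds a protein-coding gene 3' end, a 5' end, or a 3' end and no 5' end, against distance from the anchor bin in kb, negative outside and positive into the loop, over all loops of each of the 4 lists. Gene 5' ends peak at the sorbitol anchors (21.3% and 26.4%). In the controls 3' ends step down from outside to inside, and in wild-type control 5' ends do so as well. Bins with a 3' end and no 5' end are rarer at the sorbitol anchors (5.89% and 5.37%), where the many bins with a 5' end are left out of the count.

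The 3'-end anchors of sorbitol loops were closer to gene 5' ends than those of control loops. Of 1251 such anchors in wild-type control, 25.8% (23.5 to 28.3) lay within 5 kb of a 5' end, against 37.5% (33.4 to 41.7) of 510 in wild-type sorbitol. For eGFP-YAP, 25.9% (23.9 to 28.1) of 1638 control anchors and 40.5% (36.1 to 45.0) of 457 sorbitol anchors did. Anchors moved to the right that met the rule gave 24.5% and 24.2% for the controls and 28.7% and 33.7% with sorbitol, and all genomic bins with a 3' end and no 5' end gave 24.1%. The control shares lay close to these backgrounds, and the wild-type sorbitol share was above its own with intervals apart. The intervals of the eGFP-YAP sorbitol share and its background (29.8 to 37.8) overlapped.

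Proximity was highest for loops that were called only with sorbitol. Of their 3'-end anchors, 39.2% and 47.4% lay within 5 kb of a 5' end, against 31.6% and 28.6% for sorbitol loops that also had a control loop. These intervals lay apart for eGFP-YAP (41.7 to 53.2 against 22.3 to 35.8) and overlapped for wild type (34.5 to 44.1 against 23.9 to 40.5). The anchors at the far end of loops with a 3' end at 1 anchor followed the same order: 13.9% and 16.5% lay within 5 kb of a 5' end in the controls, and 26.5% and 26.4% with sorbitol. Median distance from a 3'-end anchor to the nearest 5' end was 14.7 and 13.8 kb in the controls, and 8.81 and 7.44 kb with sorbitol. Moved to the right it was 14.1 and 12.8 kb, and 11.0 and 9.13 kb, so the moved anchors differed in the same direction.

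The genes differed accordingly in length. The median gene with its 3' end in such a loop was 36.4 kb long in wild-type control (32.7 to 40.9, 1197 genes) and 22.4 kb in wild-type sorbitol (19.8 to 26.5, 545 genes). In eGFP-YAP cells it was 34.0 kb in control (30.7 to 37.4, 1437 genes) and 23.1 kb with sorbitol (19.1 to 26.8, 489 genes). Genes found at the moved anchors were 33.9, 26.6, 33.1 and 21.2 kb long in the same list order, so gene length followed the neighbourhood of the anchors as well. Median GC content of the anchors was 45.8% and 45.5% in the controls and 48.7% and 48.5% with sorbitol, and that of the anchors moved to the right 44.6% and 44.02%, and 47.1% and 47.9%. The AATAAA polyadenylation signal stood in the last 40 bases of 58.3%, 54.1%, 59.3% and 57.9% of the genes in that order, against 57.3% of all 19970 protein-coding genes.

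CTCF motifs were more frequent at 3'-end anchors than at moved anchors in all 4 lists. The motif was found at 30.1% (27.7 to 32.7) of 3'-end anchors in wild-type control, 26.5% (22.8 to 30.5) in wild-type sorbitol, 41.8% (39.5 to 44.2) in eGFP-YAP control and 31.9% (27.8 to 36.4) in eGFP-YAP sorbitol cells. At moved anchors that met the rule the shares were 13.7%, 18.0%, 13.9% and 16.9%. Loops with neither gene end had motifs at 23.8%, 20.8%, 32.9% and 31.4% of their anchors, so the 3'-end anchors of both controls and of wild-type sorbitol exceeded them with intervals apart. The base rates differ, however: 15.5% of hg38 bins with a 3' end and no 5' end held a motif, against 8.69% of all bins. The higher share is therefore not a stronger enrichment of motifs over the genome at 3'-end anchors. With sorbitol the motif share was lower than in control in both lines, with intervals apart in eGFP-YAP and overlapping in wild-type cells. Without a mismatch the motif stood at 7.75%, 7.06%, 11.2% and 7.44% of the anchors, and in anchors widened by 5 kb on each side at 61.6%, 54.1%, 66.0% and 60.8%.

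In eGFP-YAP cells the motif share was 40.2% (37.8 to 42.7) for control-only loops, 57.1% (49.3 to 64.7) for control loops that also had a sorbitol loop, and 24.2% (19.6 to 29.5) for sorbitol-only loops, with all 3 intervals apart. In wild type it was 29.8% (27.2 to 32.6), 32.8% (25.4 to 41.2) and 22.9% (19.02 to 27.3), and the intervals overlapped. Of motifs on a single strand per anchor, 79.4% and 84.9% pointed into the loop in the controls and 68.3% and 69.1% with sorbitol, while at moved anchors 50.4%, 40.6%, 50% and 38.8% did. Some loops held motifs of 1 strand each at both anchors. The pair was convergent in 70 of 105 such loops in wild-type control and 18 of 29 in wild-type sorbitol. In eGFP-YAP cells it was convergent in 183 of 246 in control and 37 of 54 with sorbitol. Neither moved anchors nor other loops are set beside these counts, so they are not shown to be particular to 3'-end loops.

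**Figure D3:**
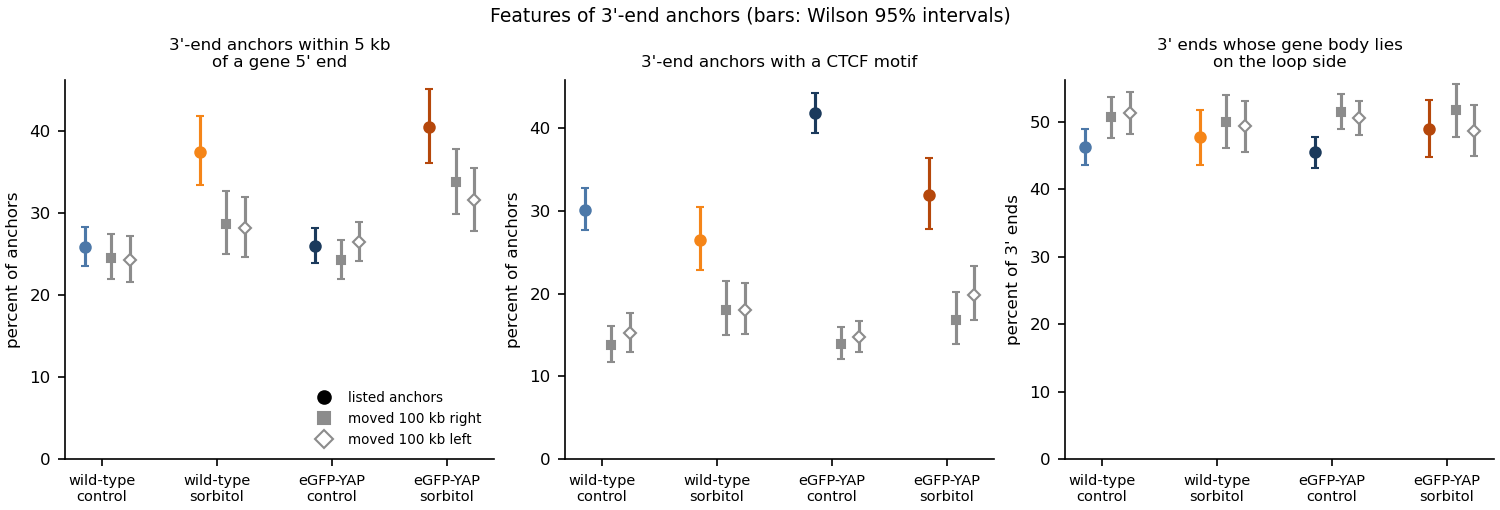
Features of 3'-end anchors in the 4 lists, in percent from 0 with Wilson 95% intervals: anchors within 5 kb of a gene 5' end, anchors with a CTCF motif, and 3' ends whose gene body lies on the loop side. Circles are listed anchors and grey symbols moved anchors that met the same rule; proximity to 5' ends is higher with sorbitol (37.5% and 40.5%), motifs exceed the moved anchors in every list, and the gene body is slightly more often outside the loop in the controls (46.3% and 45.5% on the loop side).

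A 3' end in an anchor can have its gene inside the loop or outside it. The gene body lay on the loop side for 46.3% (43.7 to 49.0) of 1353 3' ends in wild-type control and 45.5% (43.2 to 47.8) of 1788 in eGFP-YAP control. Both intervals lay below 50%, and the moved anchors gave 50.7% and 51.6%. In the sorbitol lists the shares were 47.8% (43.7 to 51.8) of 578 and 49.0% (44.8 to 53.3) of 526, with intervals that included 50%. In eGFP-YAP sorbitol cells, anchors with all gene bodies away from the loop held a motif in 37.2% of 207 cases and those with all bodies on the loop side in 22.1% of 204, with intervals apart (30.9 to 43.96 and 16.9 to 28.2). The same pair was 43.7% and 37.7% in eGFP-YAP control, 31.2% and 28.8% in wild-type control and 26.1% and 24.3% in wild-type sorbitol cells.

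Loops with a 3' end at both anchors were few. They numbered 51 in wild-type control, 32 in wild-type sorbitol, 63 in eGFP-YAP control and 24 in eGFP-YAP sorbitol cells, or 0.336%, 0.542%, 0.332% and 0.430% of all loops. Moved to the right, the anchors gave 0.184%, 0.423%, 0.195% and 0.412%, with intervals that overlapped in every list. Moved to the left they gave 0.0856%, 0.474%, 0.142% and 0.502%, from which both controls lay apart (0.256 to 0.441 against at most 0.146, and 0.260 to 0.425 against at most 0.207). Of the eGFP-YAP control loops with ends of 1 strand at each anchor, 21 of 52 had both gene bodies outside the loop, 11 had both inside and 20 had 1 of each. In wild-type control the counts were 12, 9 and 22 of 43, in wild-type sorbitol 10, 4 and 11 of 25, and in eGFP-YAP sorbitol cells 3, 7 and 8 of 18. The eGFP-YAP control anchors gave 10, 8 and 10 of 28 when moved to the right and 3, 8 and 9 of 20 when moved to the left. The intervals of both outside and both inside overlapped in every list. An anchor that holds 3' ends of both strands, the meeting of convergent genes, made up 6.08% and 7.20% of 3'-end anchors in the controls and 10.0% and 10.1% with sorbitol, against 5.97%, 7.63%, 11.8% and 10.7% at the moved anchors (controls first).

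Where the 3' end was at 1 anchor, the other anchor lay outside protein-coding genes in 47.4% and 46.8% of control loops and 38.8% and 41.1% of sorbitol loops. It lay in the body of another protein-coding gene in 47.0% and 48.5% of control loops and 56.5% and 54.8% of sorbitol loops. It lay in the same gene in only 5.57%, 4.71%, 4.70% and 4.16% of loops, in the order of wild-type control and sorbitol, then eGFP-YAP control and sorbitol. The moved anchors gave 5.79%, 3.14%, 4.64% and 3.04%, within the intervals of the listed shares.

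The loops were short in the controls. Their median span was 195 kb (180 to 205) in wild-type control, against 240 kb for all loops, and 210 kb (200 to 220) in eGFP-YAP control, against 260 kb. With sorbitol the medians were 200 kb (185 to 225) against 215 kb, and 245 kb (215 to 275) against 230 kb. Control loops with a 5' end were short too, with medians of 175 kb (170 to 185) in wild type and 190 kb (180 to 200) in eGFP-YAP. Control loops with neither end had medians of 255 and 280 kb. A short span in the controls was thus not particular to 3'-end loops. Under 100 kb, 11.0% and 11.7% of control loops were anchored at 3' ends, against 7.89% and 5.32% of sorbitol loops. The moved anchors gave 10.5% and 9.81% there for the controls and 10.4% and 10.6% with sorbitol, so the short sorbitol loops lay below their background. The intervals of the listed shares (6.38 to 9.73 and 4.01 to 7.02) lay below these values, but the background has counting error of its own. These are shares of all short loops, and no share among those without a 5' end was computed. From 200 to below 500 kb the shares were 7.22% and 7.89% in the controls and 7.80% and 8.96% with sorbitol.

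The caller's peak score was used only to rank loops within their own list. The median score percentile of 3'-end loops was 50, 47.6, 51.4 and 48.5 in the list order of the opening, so they were neither the strongest nor the weakest loops. Control 3'-end loops that were called again with sorbitol ranked higher, at a median percentile of 78.4 (wild type) and 78.6 (eGFP-YAP), against 47.2 and 48.8 for those that were not.

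Fewer loops were called with sorbitol, and the count of 3'-end loops was lower by about the same factor as that of the whole list. The ratio of sorbitol to control counts of 3'-end loops was 0.398 (exact interval 0.358 to 0.443) for wild-type cells. For eGFP-YAP cells it was 0.275 (0.247 to 0.306), and all loops gave 0.389 and 0.294. Loops with a 5' end gave 1.21 and 0.818, the first being more loops with sorbitol than without, and loops with neither end 0.278 and 0.200. The 3'-end loops thus lay between these classes, with intervals apart from both in each line. Under the stricter rule, with no 5' end within 5 kb, the ratios were 0.314 (0.270 to 0.363) and 0.210 (0.180 to 0.244), and the second interval included the 0.200 of loops with neither end.

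Loops were called the same where both anchor centres lay within 10 kb. Of wild-type control 3'-end loops, 128 of 1200 (10.7%, 9.04 to 12.5) had a sorbitol loop, against 7.81% of all wild-type control loops. In eGFP-YAP cells 150 of 1575 (9.52%, 8.17 to 11.1) had one, against 9.28% of all. From the other side, 109 of 478 wild-type sorbitol 3'-end loops (22.8%, 19.3 to 26.8) had a control loop, against 20.1% of all, and 160 of 433 in eGFP-YAP cells (37.0%, 32.5 to 41.6), against 31.6% of all. The eGFP-YAP control share was near its background, as was the wild-type sorbitol share, and the other 2 lay above it with the background outside the interval. The values hang on the distance: at identical anchors 1.08% and 2.60% of control 3'-end loops were called again, and within 25 kb 19.2% and 16.7% were.

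A matched loop was often no longer a 3'-end loop, since a shift of 1 bin changes what an anchor holds. The sorbitol match of a control 3'-end loop was itself one in 41 of 128 cases in wild type and 72 of 150 in eGFP-YAP cells. Of the same 128 and 150 matches, 36 and 24 held a 5' end.

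The 3'-end loops recurred between lines mainly in the controls. Of wild-type control 3'-end loops, 572 of 1200 (47.7%) had an eGFP-YAP control loop within 10 kb, against 40.2% of all loops, and from the eGFP-YAP side 574 of 1575 (36.4%) had one, against 32.2%. With sorbitol, 100 of 478 (20.9%) and 102 of 433 (23.6%) recurred in the other line, against 24.2% and 25.7% of all loops of those lists. Loops with a 5' end recurred between the sorbitol lists in 33.2% and 31.8% of cases. The sorbitol 3'-end loops had a lower share called in the other line than loops with a 5' end. The intervals lay apart (17.5 to 24.8 against 31.1 to 35.3, and 19.8 to 27.8 against 29.9 to 33.7). The shares of all loops, 24.2% and 25.7%, lay within the intervals of the 3'-end loops. A low share was thus not shown to be particular to 3'-end loops.

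**Figure D4:**
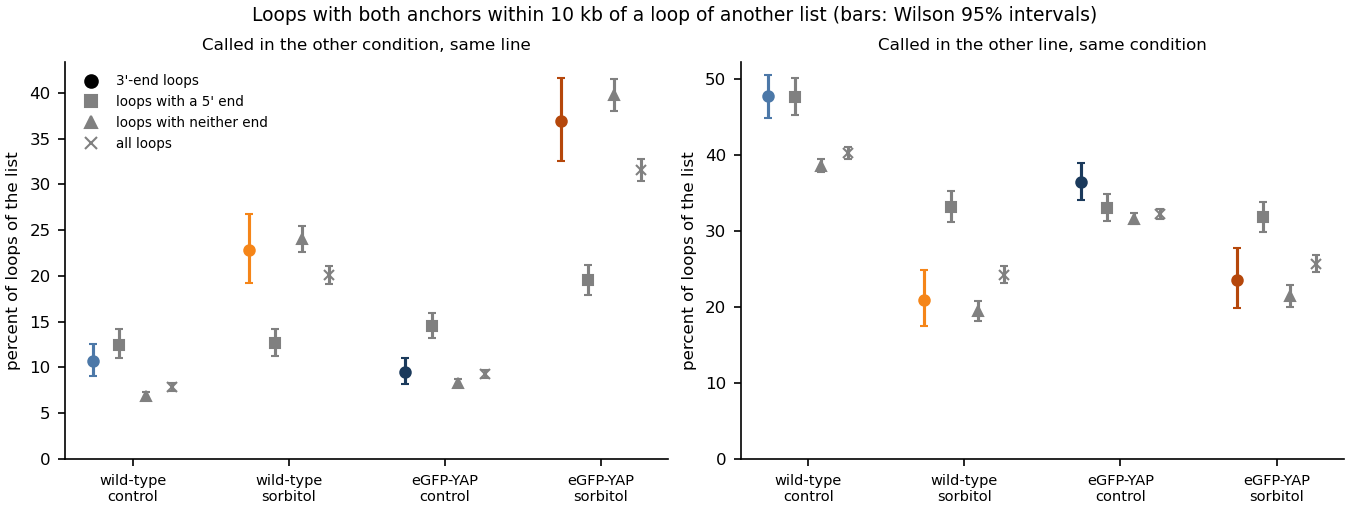
Percent of loops (from 0, Wilson 95% intervals) with both anchor centres within 10 kb of a loop in the other condition of the same line, and in the same condition of the other line. Coloured circles are 3'-end loops and grey symbols loops with a 5' end, loops with neither end and all loops; 10.7% and 9.52% of control 3'-end loops were called again with sorbitol, and 20.9% and 23.6% of sorbitol 3'-end loops were called in the other line, below the 33.2% and 31.8% of loops with a 5' end.

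Single loops were named by their mean score percentile among those matched in both lines. Of 431 wild-type control-only 3'-end loops with a control-only eGFP-YAP match, 202 were 3'-end loops in both lines. The first was the loop from SNX10, a sorting nexin of the endosomes, to SKAP2, an adaptor protein of the Src kinase pathway, at chr7:26370001-26375000 and chr7:26665001-26670000. It spanned 295 kb in both lines, at score percentiles of 99.8 in wild type and 99.3 in eGFP-YAP. The genes end towards each other, SNX10 at base 26374383 on the plus strand and SKAP2 at base 26667068 on the minus strand, so both gene bodies lay outside the loop and the loop spanned the gap between them. The nearest 5' end, that of SNX10 itself, was 78.1 kb from its anchor.

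The next control-only loops joined the 3' end of EEIG2 to an anchor outside protein-coding genes 130 kb away, the 3' end of GAPT, a transmembrane adaptor of B cells, to the body of RAB3C, a vesicle GTPase, over 350 kb in wild type, and the 3' end of ATP9B, a phospholipid flippase, to a region 255 kb away. The 3' end of SPATS2L was joined to the body of MAIP1 over 500 kb, and the 3' end of TVP23C to the body of PMP22, a myelin protein gene, over 245 kb. All 6 named control-only loops held a CTCF motif at an anchor, and 1 of the 6, the GAPT loop, had a 5' end within 5 kb of an anchor. A loop was counted where either anchor had the feature in either line. The loops were picked by score, so these counts do not stand for all control-only loops. They cannot be set against the shares per anchor given earlier.

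Of 40 wild-type sorbitol-only 3'-end loops with a sorbitol-only eGFP-YAP match, 9 were 3'-end loops in both lines. The first joined the 3' end of DNAJC6, a co-chaperone that uncoats clathrin vesicles, at chr1:65415001-65420000, to the body of JAK1, a cytokine receptor kinase, at chr1:64965001-64970000 in wild type. It spanned 450 and 455 kb, at score percentiles of 97.8 and 97.1. The DNAJC6 anchor ended 0.587 kb short of the 5' end of LEPROT, a regulator of receptor traffic that starts beside the leptin receptor gene LEPR. The second joined the 3' end of LYPD3, a cell surface protein, at chr19:43460001-43465000, to the body of PLAUR, the urokinase receptor, over 200 kb in wild type and, with the right anchor 1 bin further out, 205 kb in eGFP-YAP. LYPD3 is 4.82 kb long, and its own 5' end lay 0.608 kb outside the anchor. In eGFP-YAP cells the other anchor ended 0.547 kb from the 5' end of PLAUR, and it no longer held the motif printed above.

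The 3' end of CALY, a regulator of dopamine receptor traffic, was joined to ADGRA1, an adhesion G protein-coupled receptor, over 195 kb, with the 5' end of TUBGCP2 1.18 kb from the CALY anchor. The 3' end of CD248, a stromal glycoprotein, was joined to MRPL11, a mitochondrial ribosomal protein, over 150 kb, with the 5' ends of CD248 and PELI3 at 2.04 and 1.33 kb. The fifth loop ended at ENSG00000256825, an unnamed gene that overlaps ZNF268, and in eGFP-YAP cells also at ZNF84. The sixth joined the 3' ends of PLD6, a mitochondrial phospholipase, and of ENSG00000264187, which overlaps it, to the body of MPRIP, with the 5' end of PLD6 at 1.33 kb. In 5 of the 6 named sorbitol-only loops an anchor lay within 5 kb of a 5' end, and 2 of the 6 held a CTCF motif. These loops were picked and counted in the same way as the named control-only loops. The named loops are therefore no comparison of control with sorbitol.

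Of 46 wild-type control 3'-end loops matched in the other 3 lists, 6 were 3'-end loops in every one. The loop at RSPO4, an R-spondin that amplifies Wnt signals, had identical anchors in all 4 lists, chr20:815001-820000 and chr20:955001-960000, at score percentiles of 92.0, 94.1, 99.0 and 97.5. The other named ones were at PLA2G2F, a secreted phospholipase, where the wild-type sorbitol anchor was 1 bin further out and also held the 3' end of OTUD3, at MED12L and IGSF10, which overlap, and at SH3TC1, whose other anchor was in ACOX3, a peroxisomal oxidase. All 4 held a CTCF motif at an anchor in at least 1 list, and they too were picked by score.

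**Figure D5:**
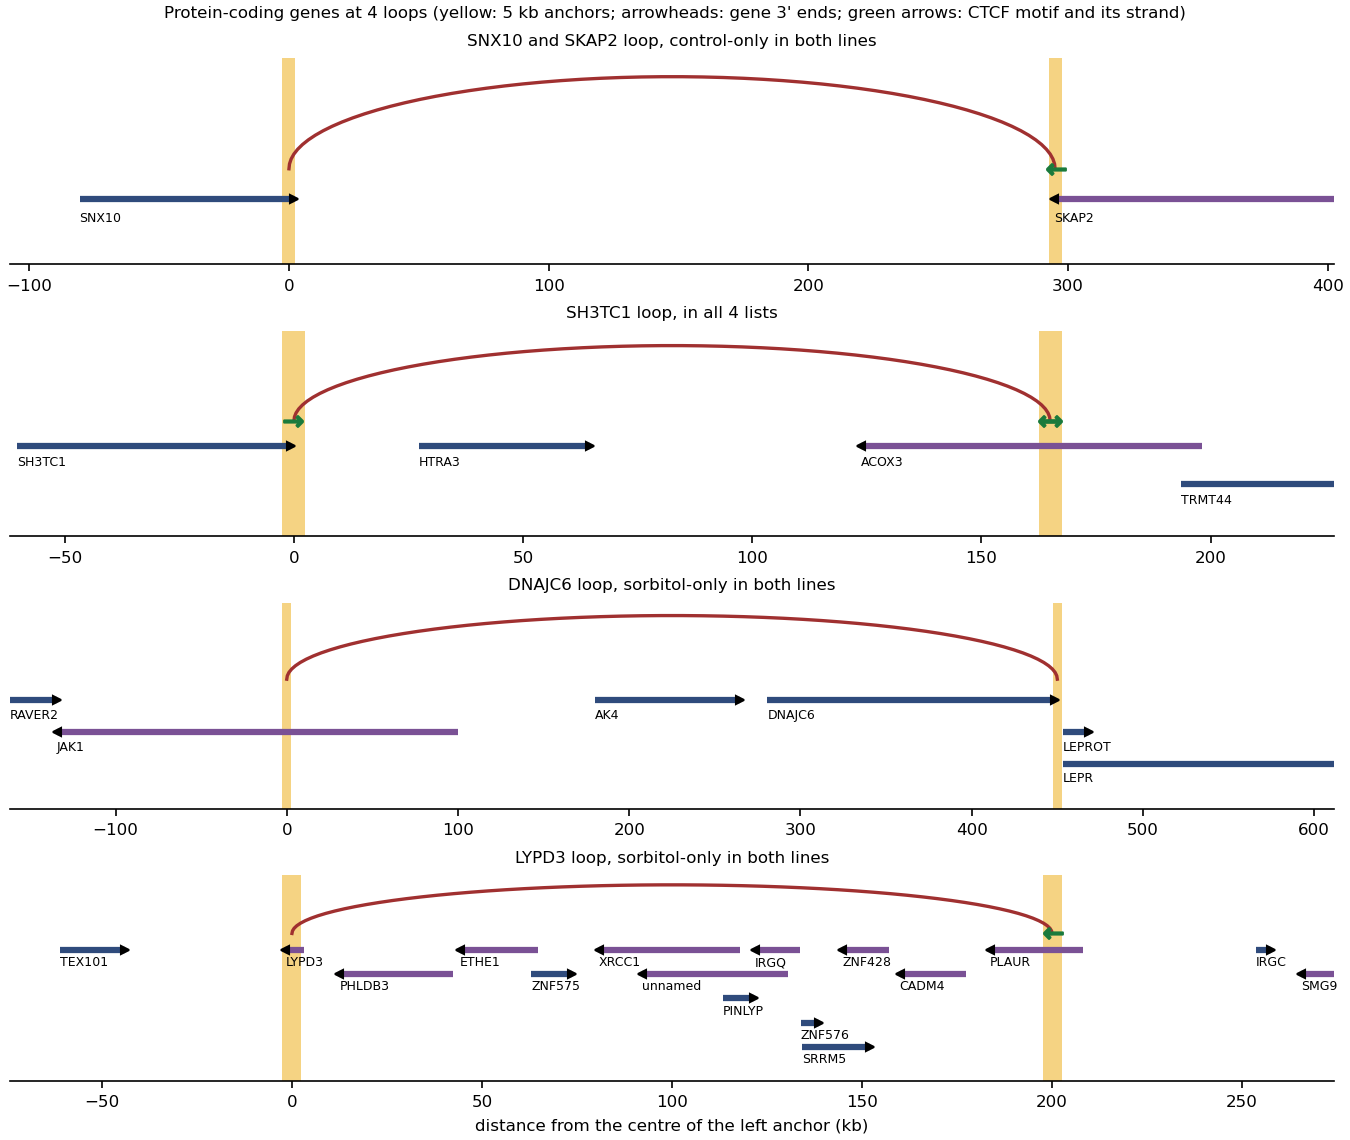
Maps of 4 named loops, drawn to scale with distance in kb from the centre of the left anchor: the SNX10 and SKAP2 loop (control-only), the SH3TC1 loop (all 4 lists), and the DNAJC6 and LYPD3 loops (sorbitol-only). Yellow bands are the 5 kb anchors in wild type, bars protein-coding genes with an arrowhead at the 3' end, and green arrows CTCF motifs; the SNX10 and SKAP2 loop has 1 motif and it points into the loop, the SH3TC1 loop has 3 of which 1 points out, and the DNAJC6 anchor stops 0.587 kb before the start of LEPROT.

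The 3' ends in these loops came from 1197 genes in wild-type control, 545 in wild-type sorbitol, 1437 in eGFP-YAP control and 489 in eGFP-YAP sorbitol cells, 2856 different genes in all. Control and sorbitol shared 119 genes in wild type, or 9.94% of the control and 21.8% of the sorbitol genes. The eGFP-YAP lists shared 138, or 9.60% and 28.2%. The share of all loops called in both conditions was 7.81% of control and 20.1% of sorbitol loops in wild type. In eGFP-YAP it was 9.28% and 31.6%. Those loops were matched at both anchors, while a gene was counted whatever the other anchor of its loop. The loop shares are therefore no direct background for the gene overlaps. The control lists shared 410 genes with each other (34.3% and 28.5%), and the sorbitol lists 87 (16.0% and 17.8%). The 21 genes found in all 4 lists included TFEB, a master regulator of lysosome genes, CRTC3, a co-activator of CREB, the transcription factors SOX13 and FOXF1, the steroid hydroxylase CYP17A1, the kinase CAMK2A, and TMED10, a cargo receptor of the secretory pathway. These 7 were picked from the 21 for their known roles. No background at moved anchors is given for genes shared between lists, so these counts are descriptions.

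Some 3' ends anchored several loops. In the controls 10.8% and 18.6% of the genes were in 2 or more 3'-end loops, against 5.50% and 6.54% with sorbitol, where the lists were also shorter. In wild-type control the genes with most loops were RRP15, REEP3, FOXF1, THADA and SP9, each with 4. In eGFP-YAP control PLA2G4A, a cytosolic phospholipase, had 5, and 9 genes had 4. In wild-type sorbitol JMJD4, RPL7L1 and ENSG00000256825 had 3 each. In eGFP-YAP sorbitol cells TMED10, the overlapping TMEM217 and TMEM217B, and the neighbours VDAC2 and COMTD1, which end towards each other, had 3 each.

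Gene groups were read against the share of all protein-coding genes with a 3'-end loop, which was 5.99%, 2.73%, 7.20% and 2.45% in the list order of the opening. Of 22 osmotic stress and cell volume genes, 3, 0, 2 and 0 had one. In wild-type control these were SGK1, a kinase induced by osmotic and hormonal signals, with 2 loops of 650 and 720 kb, SLC38A2, an amino acid transporter, and SLC5A3, the myo-inositol transporter. In eGFP-YAP control they were LRRC8C, a subunit of the volume-regulated anion channel, and NFAT5, the transcription factor of the hypertonic response. The longer SGK1 loop was the only one of these that had a sorbitol loop of its line. For this group the share of all genes lay within the interval in every list (4.75 to 33.3, 0 to 14.9, 2.53 to 27.8 and 0 to 14.9). The counts of 0 with sorbitol therefore show no difference from all genes.

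Of 27 genes of 3' end processing and termination, 1, 2, 2 and 1 had a 3'-end loop. CSTF3, of the cleavage stimulation factor, had one in both controls, and CLP1, a cleavage factor, in eGFP-YAP control. INTS11, the nuclease of the Integrator complex, and PPP1CA, a phosphatase that slows polymerase at gene ends, had them in wild-type sorbitol. PAPOLA, a poly(A) polymerase, had one in eGFP-YAP sorbitol cells. In every list the share of all genes lay within the interval of this group too.

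Of 30 genes listed as YAP targets or Hippo pathway members, 2, 4, 4 and 1 had a 3'-end loop. The share of all genes lay within the interval in 3 lists and below it in wild-type sorbitol (5.31 to 29.7). WWTR1, which encodes the YAP paralogue TAZ, had a 270 kb loop with identical anchors in wild-type control and sorbitol, at score percentiles of 83.1 and 58.8. ANKRD1, a YAP target, had a 340 kb loop with identical anchors in wild-type sorbitol and eGFP-YAP control, at percentiles of 75.9 and 90.0. CCN2, another target, had 2 loops of 185 and 305 kb in eGFP-YAP control, where TEAD4, the DNA-binding partner of YAP, had one of 195 kb. F3 in wild-type control, MST1 and AMOTL2 in wild-type sorbitol, FJX1 in eGFP-YAP control and AJUBA in eGFP-YAP sorbitol cells completed the list. MST1 is here the gene of that symbol on chromosome 3. It is not the Hippo kinase also called MST1, which is STK4 and was listed on its own. The wild-type sorbitol share without MST1 was not computed. Of 516 zinc finger genes, 16, 23, 20 and 9 had one, or 3.10%, 4.46%, 3.88% and 1.74%. In both controls the share of all genes lay above the interval for zinc finger genes (1.92 to 4.98 and 2.52 to 5.91), in wild-type sorbitol it lay below it (2.99 to 6.60), and in eGFP-YAP sorbitol cells it lay within it (0.920 to 3.28).

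Chromosome 19, the most gene-dense chromosome, had the highest share of 3'-end loops in all 4 lists, at 18.2% of 280 loops, 16.2% of 241, 17.0% of 447 and 11.7% of 358. Chromosome 13 had the lowest share in both controls, at 3.70% of 729 loops in wild type and 3.57% of 645 in eGFP-YAP cells. Chromosome 19 held 4.25% and 4.83% of the 3'-end loops in the controls and 8.16% and 9.70% with sorbitol. Of all loops it held 280 of 15180 and 447 of 18966 in the controls, and 241 of 5906 and 358 of 5577 with sorbitol. Its share of the whole lists was thus higher with sorbitol as well.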

How the data were processed

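The 4 loop lists were deposited by the authors without replicates. Per the file headers, each line gives 2 anchors of 5 kb and a peak score in the format of SIP, an image-based loop caller. The deposited score has no fixed scale and was used only to rank loops within a list. Caller settings, contact map normalisation and read depth are not given in the sources used here. Libraries were cut with MboI, per the labels' protocols. The build hg38 is named in the submitters' processing notes, and 0 anchors lay beyond hg38 chromosome ends. Each list was assigned to its group by its name. The cells are HEK293 in the labels and HEK293T in their growth protocol. The other 18 samples were not analysed here, and 0 columns were left without a group.

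Gene ends were those of the 19970 protein-coding gene records of GENCODE release 44 on 23 chromosomes, turned by strand. Loops were classified, moved by 100 kb and matched within 10 kb with Python 3.11.15, numpy 2.4.6 and pandas 2.3.3. Shares have Wilson 95% intervals, count ratios exact Clopper-Pearson intervals and medians order-statistic intervals (scipy 1.17.1). They cover counting error only, and loops that share genes or anchors are not independent. The CTCF core consensus of 14 bases was looked for on either strand, with 1 mismatch allowed. The steps were checked on simulated loops, genes and planted motifs. In 4 loops the anchors stood in reverse order and were sorted. Named loops were, among those matched across the lines, the highest by mean score percentile, at most 1 per chromosome (6 sorbitol-only, 6 control-only and 4 in all 4 lists), and the genes with the most 3'-end loops per list, with ties named, apart from a gene that is not reported here. Alternatives were wider anchors, the upper 50% of each list by score, merged neighbouring loops, canonical transcript ends, gene records of all types, 5'-end loops kept, chromosome 19 left out, anchors moved to the left, other match distances, anchors with a single 3' end and a motif without mismatch. The members, lists and rules were chosen with earlier results of these data known.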

Additional observations from a re-analysis of the deposited data

Results flagged for a closer look

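The share of loops anchored at gene 3' ends differed from control to sorbitol in opposite directions in the 2 lines. It was 0.188 percentage points higher with sorbitol in wild type (7.91% to 8.09%), and the change in eGFP-YAP cells was -0.540 percentage points (8.30% to 7.76%). No test of this difference was possible, since a condition has 1 list (the difference was not tested), and the intervals of control and sorbitol overlapped in both lines. On other scalings both lines went the same way. The ratio to anchors moved to the right was 1.30 in control and 0.952 with sorbitol in wild type, and 1.29 and 0.838 in eGFP-YAP cells. Among loops without a 5' end, the share was 8.87% and 12.2% in wild type and 9.68% and 12.8% in eGFP-YAP cells. With no 5' end within 5 kb, it was 5.06% and 4.08%, and 5.23% and 3.73%, of all loops.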

How the results depend on the processing

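No paired analysis was possible because each condition has 1 pooled list with no replicate in it. Of 124 values recomputed, 66 stayed within the interval of the main value, among them all those with merged neighbours (which removed 1 loop), canonical transcript ends, chromosome 19 left out and single 3' ends. Values below are in the order wild-type control, wild-type sorbitol, eGFP-YAP control, eGFP-YAP sorbitol. With anchors widened by 5 kb on each side, shares were 14.4%, 10.6%, 13.9% and 10.3%, ratios to moved anchors 0.749, 1.13 and 0.689 in the last 3 lists, count ratios 0.287 in wild type and 0.217 in eGFP-YAP, wild-type control loops called again 8.87%, and sorbitol loops without a control loop 72.5% and 52.6% (77.2% and 63.0% before). With gene records of all types, shares were 10.4%, 10.4%, 11.1% and 9.61%, and ratios 1.11 and 1.19 in the controls. With loops with a 5' end kept, shares were 10.2%, 17.1%, 11.5% and 16.9%, and ratios 1.42 and 1.38 in the middle lists, while the eGFP-YAP sorbitol ratio turned from 0.838 to 1.27. With no 5' end within 5 kb, added after seeing the data, shares were 5.06%, 4.08%, 5.23% and 3.73%, ratios 1.22, 0.755, 1.20 and 0.705, and count ratios 0.314 and 0.210. In the upper 50% by score, the ratio was 1.37, 1.44 and 0.926 in the lists other than wild-type sorbitol. Against anchors moved to the left, it was 1.37 and 1.20 in the controls. Matched at identical anchors, 1.08% and 2.60% of control loops were called again and 97.3% and 90.5% of sorbitol loops had no control loop. Within 25 kb these were 19.2%, 16.7%, 59.2% and 49.2%. Without a mismatch the motif was at 7.75%, 7.06%, 11.2% and 7.44% of 3'-end anchors, and in the upper 50% by score the gene body was on the loop side for 43.6% and 42.2% in the controls. The cause of these shifts was not tested. Depth is unknown, so a loop missing from a list may be one that was not detectable there.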
